A study of Mus musculus with 16 samples.

Results

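RNA levels of 8 genes that mark or shape parvalbumin interneurons were followed across 16 libraries of mouse prefrontal cortex. The genes were Pvalb, Syt2, Cox6a2, Erbb4, Pthlh, Lhx6, Sox6 and Ank1, taken by symbol from a table of 23284 genes. All 8 were found, and all 8 were among the 13978 genes tested, which had a mean of at least 0.5 FPKM (fragments per kilobase of transcript, scaled to the mapped fragments of each library). The study asked what raised or lowered β-catenin in excitatory neurons does to gene expression in this region.

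There were 4 libraries of each of 4 genotypes, from 2 to 3 month-old mice of both sexes. APC cKO mice were APC fl/fl, and the deletion of APC, a negative regulator of β-catenin, raises β-catenin. The β-cat cOE mice were ctnnb1 fl(ex3)/+, in which removal of an exon leaves a β-catenin that escapes degradation. APC/β-cat cKO mice were APC fl/fl / ctnnb1 fl/fl and lack both genes in the same cells, and they are called double mutants here. All 3 mutant lines carried CamKIIα-Cre-93, which is active mainly in excitatory neurons of the forebrain from the first postnatal weeks. Controls were Cre-negative littermates pooled from the lines, so the effect of Cre itself and that of the floxed alleles cannot be told apart. The recombined cells are excitatory neurons, while the 8 genes are read mainly from other cells of the same tissue. Nothing in the labels says how the mice were shared between libraries, so p-values measure the spread between these libraries.

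Parvalbumin interneurons are the fast-spiking inhibitory cells of the cortex. They arise in the medial ganglionic eminence, where Lhx6 and then Sox6 set their fate. They contact the cell bodies of excitatory neurons, release GABA with little delay and recover quickly, which asks for calcium buffering by parvalbumin, a fast calcium sensor (synaptotagmin 2) and a high output of the mitochondria (Cox6a2 is a subunit of cytochrome c oxidase). Erbb4, the receptor for neuregulins, guides the input that these cells receive. Lhx6, Sox6 and Erbb4 are also used by other interneurons, so only Pvalb, Syt2 and Cox6a2 are close to specific for this cell type in the cortex. In bulk tissue, fewer cells of a type and less RNA per cell cannot be told apart.

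The promoters were read because β-catenin acts on genes through TCF/LEF factors. RefSeq promoter windows (build GRCm38.p6) matched 6 of the 8 genes, with 15 start sites. Cox6a2 and Ank1 had none. In the 250 bases before each start, on both strands, the letters CTTTGA or CTTTGT (TCF/LEF) occurred in 7 of 15 windows, against 27.6% of all 32851 windows. Those 7 were the 6 windows of Sox6 and 1 of the 3 windows of Lhx6. The SOX letters ACAATG occurred in 3 of 15 windows, against 10.7% of all windows. The LIM homeodomain letters TAATTA, the kind of site that Lhx6 binds, occurred in 0 of 15 windows, against 4.8% of all. Matches overlapped one another in 0 of these windows. The windows of Pvalb, Syt2, Erbb4 and Pthlh held none of the 3 sets of letters. A window each of Pvalb, Syt2 and Sox6 is shown to set the first pair, which carry the lower values described later, beside a gene with matches. They read 5′ to 3′ in the direction of transcription, with matches in capitals. A match is a description of letters, and its absence says only that the letters are not in this window.
Pvalb, chr15:78206401-78206650, minus strand: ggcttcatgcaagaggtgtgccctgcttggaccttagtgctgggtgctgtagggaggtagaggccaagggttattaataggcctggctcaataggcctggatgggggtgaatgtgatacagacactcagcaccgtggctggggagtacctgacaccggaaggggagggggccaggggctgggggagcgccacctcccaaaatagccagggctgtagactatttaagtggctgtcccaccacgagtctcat
Syt2, chr1:134709050-134709299, plus strand: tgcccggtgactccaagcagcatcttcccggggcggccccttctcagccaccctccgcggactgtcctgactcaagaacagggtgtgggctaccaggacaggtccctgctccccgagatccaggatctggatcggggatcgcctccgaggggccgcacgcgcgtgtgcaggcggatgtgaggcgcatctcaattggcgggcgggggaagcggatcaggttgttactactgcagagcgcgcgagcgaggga
Sox6, chr7:115824711-115824960, minus strand: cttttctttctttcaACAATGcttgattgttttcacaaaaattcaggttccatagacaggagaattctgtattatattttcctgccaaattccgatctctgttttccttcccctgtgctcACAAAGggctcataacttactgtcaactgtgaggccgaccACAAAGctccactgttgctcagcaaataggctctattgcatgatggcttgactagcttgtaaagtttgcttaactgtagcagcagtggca

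In controls, Pvalb stood far above the other genes, at 64.8 ± 3.20 FPKM (SD, n = 4). Syt2 (7.93 ± 1.33 FPKM) and Ank1 (7.70 ± 0.272 FPKM) came next and overlapped in range. Erbb4 (5.79 ± 0.396 FPKM), Lhx6 (5.57 ± 0.587 FPKM) and Cox6a2 (4.66 ± 1.25 FPKM) followed, and each overlapped the next in range. Sox6 (2.66 ± 0.311 FPKM) and Pthlh (2.39 ± 0.845 FPKM) were lowest and could not be ordered (SD, n = 4 each). FPKM is scaled for transcript length, so these levels can be set side by side between genes. Among genes of similar level, the spread within a genotype was large for most of the 8. The SD within a genotype on the log2 scale was 0.29 for Pvalb, above that of 97.0% of 1487 genes within 1.5 times its mean level. For Erbb4 it was 0.57 (above 97.6% of 2449 genes) and for Cox6a2 0.64 (above 97.2% of 2149 genes), while Sox6 (0.24) and Ank1 (0.15) were near the middle of their peers.

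**Figure D1:**
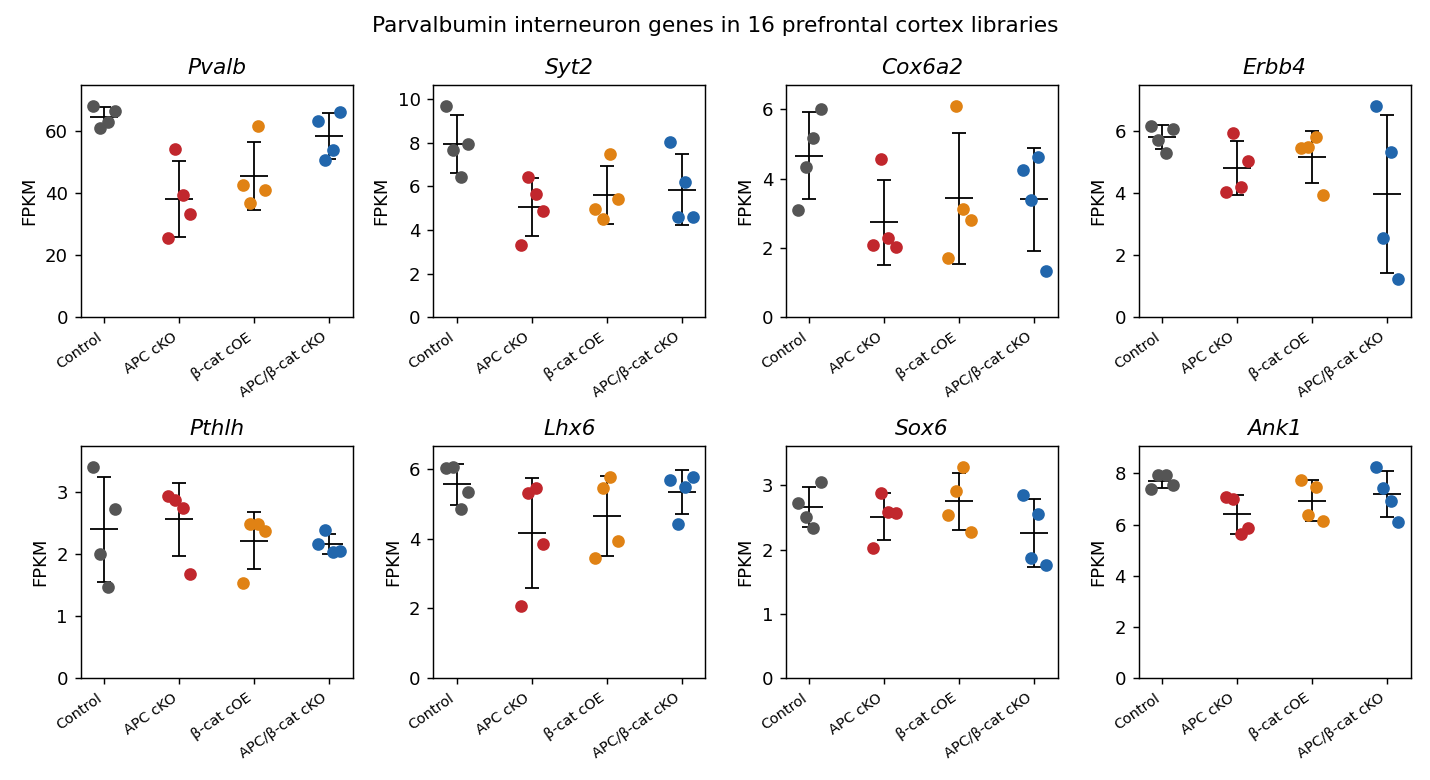
FPKM (y axis, from 0) of each of the 8 genes in the 4 genotypes (x axis); each point is 1 library, the horizontal bar is the mean and the whiskers are 1 SD (n = 4). The 4 APC cKO points of Pvalb, at 25.6 to 54.4 FPKM, lie below all 4 control points, at 61.2 to 68.2 FPKM.

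Pvalb encodes parvalbumin, the calcium buffer that gives these cells their name. The gene lies on chromosome 15 from 78191114 to 78206400 on the minus strand (GENCODE annotation of mm10), and its longest transcript has 977 nucleotides. Pvalb was picked by the study on these same libraries, so its tests describe the values and are not independent evidence. The paper also reports lower parvalbumin by qPCR (RNA) and immunoblot (protein) in both lines with raised β-catenin, and normal levels in APC/β-cat cKOs. In controls Pvalb was at 68.2, 61.2, 63.1 and 66.6 FPKM. In APC cKOs it was at 25.6, 54.4, 39.4 and 33.2 FPKM, and in β-cat cOEs at 42.7, 37.1, 61.7 and 41.1 FPKM. In APC/β-cat cKOs it was at 63.2, 50.7, 54.1 and 66.1 FPKM. All 4 APC cKO libraries were below every control, and 3 of 4 β-cat cOE libraries were, with replicate 3 inside the control range. The APC/β-cat cKO libraries overlapped the controls, with replicates 2 and 3 below them.

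The mean of Pvalb in APC cKOs was 0.589 times that in controls, a log2 difference of -0.81 (SE 0.19, 95% interval -1.21 to -0.42). limma gave p = 0.000476 and, over all 13978 genes, a Benjamini-Hochberg adjusted p = 0.209, and the exact two-sided permutation test gave p = 0.0286, the smallest that 4 against 4 libraries allow. In β-cat cOEs the log2 difference from control was -0.53 (SE 0.19, limma p = 0.0113, adjusted p = 0.946, exact p = 0.0571). In double mutants it was -0.15 (95% interval -0.55 to 0.24, limma adjusted p = 0.728). APC cKOs were lower than APC/β-cat cKOs by a log2 difference of -0.66 (SE 0.19, limma p = 0.00266, adjusted p = 0.209, exact p = 0.0857), though replicate 2 of the APC cKOs, at 54.4 FPKM, lay inside the range of the double mutants. Between β-cat cOEs and APC/β-cat cKOs it was -0.38 (95% interval -0.77 to 0.02, limma adjusted p = 0.433). Both lines with raised β-catenin together had a mean of 41.9 FPKM, against 61.6 FPKM in the other 8 libraries, a log2 difference of -0.60 (SE 0.13, limma p = 0.000346, adjusted p = 0.178, exact permutation p = 0.00187 over 8 against 8 libraries). Pvalb did not pass the adjusted threshold of 0.05 in any. Without APC cKO replicate 2, the library nearest to controls, it did pass, at a log2 difference of -1.002 from control (limma adjusted p = 0.026). Without APC cKO replicate 1, the lowest library, it was -0.64 (limma adjusted p = 0.476).

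Gad1, which makes GABA in all inhibitory neurons, served as a reference for Pvalb within a library. The reference was not constant: within genotypes the median of 4 genes of all inhibitory neurons went against Pvalb (r = -0.66 over 16 libraries), so the ratio carries changes in both genes. In controls Gad1 was at 206 ± 46.1 FPKM, and in double mutants at 187 ± 32.9 FPKM. The APC cKO mean was 213 ± 72.3 FPKM and the β-cat cOE mean 217 ± 67.2 FPKM (SD, n = 4 each). The log2 ratio of Pvalb to Gad1 was -1.64 ± 0.35 in controls and -2.48 ± 0.85 in APC cKOs. It was -2.23 ± 0.56 in β-cat cOEs and -1.67 ± 0.39 in double mutants (SD, n = 4 each). APC cKOs differed from controls by -0.84 and β-cat cOEs by -0.59, with overlapping ranges (exact permutation p = 0.0857 and 0.114). Against Slc32a1, the vesicular GABA transporter, the log2 difference in APC cKOs was -1.07 (exact permutation p = 0.0286). Slc32a1 itself was at 0.26 in APC cKOs (SE 0.13, limma adjusted p = 0.527), which is part of that difference. Against Lhx6 it was -0.32, given as a value with no test. So the ratio passed 0.05 with 1 of the 2 reference genes tested.

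Syt2 encodes synaptotagmin 2, the calcium sensor for release at the terminals of parvalbumin cells. It lies on chromosome 1 from 134646677 to 134762593 on the plus strand, and Ppp1r12b overlaps it on the other strand. The kit keeps strand, but the strand setting of the counting is not given in the sources used here. Controls were at 9.68, 7.67, 6.45 and 7.95 FPKM. APC cKOs were at 3.32, 6.43, 5.63 and 4.87 FPKM, and β-cat cOEs at 4.97, 4.49, 7.49 and 5.40 FPKM. APC/β-cat cKOs were at 8.02, 4.62, 6.18 and 4.59 FPKM. The 4 APC cKO libraries lay below all controls, the highest by a narrow margin, while β-cat cOE replicate 3 and APC/β-cat cKO replicate 1 lay inside the control range. The log2 difference from control was -0.66 in APC cKOs (SE 0.22, limma p = 0.00757, adjusted p = 0.332, exact p = 0.0286). It was -0.51 in β-cat cOEs (SE 0.22, limma p = 0.0317, adjusted p = 0.946, exact p = 0.0571). In double mutants it was -0.46 (SE 0.22, limma p = 0.0511, adjusted p = 0.353, exact p = 0.143). The log2 difference of APC cKOs from double mutants was -0.21 (95% interval -0.67 to 0.25).

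Cox6a2 encodes a subunit of cytochrome c oxidase found in muscle and, in the cortex, mainly in parvalbumin cells. It is a short gene of 953 bases on chromosome 7 (from 128205435 to 128206387, minus strand), and Itgad overlaps it on the other strand. The region given for it in the file runs from 128173946 to 128206366 and so also covers Itgad. Controls were at 3.08, 4.34, 5.18 and 6.02 FPKM, and APC cKOs at 2.09, 4.57, 2.29 and 2.03 FPKM. The β-cat cOEs were at 1.70, 6.09, 3.12 and 2.81 FPKM, and APC/β-cat cKOs at 4.26, 3.39, 4.63 and 1.33 FPKM. In APC cKOs 3 of 4 libraries lay below all controls and 1 lay within them, and in β-cat cOEs the 4 libraries spanned more than the controls did. The log2 difference from control was -0.78 in APC cKOs (SE 0.40, limma adjusted p = 0.531, exact p = 0.0857). In β-cat cOEs it was -0.53 (limma adjusted p = 0.950), and in double mutants -0.54 (limma adjusted p = 0.547). Both values rested on single libraries. The first was -0.257 without β-cat cOE replicate 1 and -0.85 without replicate 2, and the second was -0.152 without replicate 4 of the double mutants.

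Lhx6 is the transcription factor that sets the fate of interneurons from the medial ganglionic eminence, and both parvalbumin and somatostatin cells keep it. It lies on chromosome 2 from 36081953 to 36105408 on the minus strand. Controls were at 6.03, 6.06, 4.84 and 5.33 FPKM, and APC cKOs at 2.07, 5.30, 5.47 and 3.86 FPKM. The β-cat cOEs were at 3.44, 5.46, 5.77 and 3.93 FPKM, and APC/β-cat cKOs at 5.69, 4.41, 5.48 and 5.77 FPKM. In each line with raised β-catenin 2 libraries lay below all controls and the other two lay within them. The log2 difference from control was -0.49 in APC cKOs (SE 0.24, limma p = 0.0582, adjusted p = 0.517, exact p = 0.143). It was -0.28 in β-cat cOEs (limma adjusted p = 0.950), or -0.15 without their replicate 1, and -0.06 in double mutants (limma adjusted p = 0.936). Without APC cKO replicate 1 the first of these was -0.20 (limma adjusted p = 0.849), so the value rested in large part on a single library. That library had the lowest level of Pvalb, Syt2 and Lhx6 of all 16, and without it Syt2 was at -0.48 (limma adjusted p = 0.685). It was also 1 of the 2 libraries with the female transcript Xist above 1 FPKM, the other being control replicate 1.

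Sox6 acts after Lhx6 in the same lineage and is needed for parvalbumin cells to take their place and mature. It lies on chromosome 7 from 115470872 to 116038796 on the minus strand, and the antisense gene Sox6os overlaps it. It ranged from 2.33 to 3.05 FPKM in controls and 1.77 to 2.85 FPKM in double mutants. The APC cKO range was 2.02 to 2.89 FPKM and the β-cat cOE range 2.28 to 3.29 FPKM. The 4 ranges overlapped, and the log2 differences from control were -0.08, 0.04 and -0.24 (SE 0.16 each, limma adjusted p = 0.894, 0.981 and 0.498).

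Ank1, or ankyrin-1, ties membrane proteins to the spectrin skeleton. The gene lies on chromosome 8 from 22974844 to 23150497 on the plus strand and holds Mir486. Controls were at 7.38, 7.93, 7.92 and 7.57 FPKM. APC cKOs were at 7.09, 7.01, 5.63 and 5.87 FPKM, all below the controls. The β-cat cOEs were at 7.74, 6.37, 7.48 and 6.13 FPKM and APC/β-cat cKOs at 8.26, 7.44, 6.92 and 6.11 FPKM, and both overlapped the controls. The log2 difference in APC cKOs was small, at -0.27 (SE 0.10, limma p = 0.0208, adjusted p = 0.417, exact p = 0.0286). For β-cat cOEs and double mutants it was -0.16 and -0.11 (SE 0.10 each, limma adjusted p = 0.950 and 0.661).

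Pthlh encodes parathyroid hormone-related protein, a secreted peptide that some interneurons make. It lies on chromosome 6 from 147252101 to 147264183 on the minus strand. It ranged from 1.46 to 3.40 FPKM in controls and 2.04 to 2.39 FPKM in double mutants. The APC cKO range was 1.68 to 2.92 FPKM and the β-cat cOE range 1.53 to 2.48 FPKM. The controls held both the highest and the lowest of the 16 values, and the log2 differences were 0.12, -0.07 and -0.08 (SE 0.23 each, limma adjusted p = 0.885, 0.980 and 0.907). Its APC cKO mean was above the control mean, while those of the other 7 genes were below.

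Erbb4 is the receptor tyrosine kinase for neuregulins on interneurons. It spans 1075874 bases of chromosome 1 (from 68032186 to 69108059, minus strand), and its longest transcript has 12037 nucleotides, longer than that of 98.9% of genes. Controls were at 6.15, 5.69, 5.28 and 6.05 FPKM. APC cKOs were at 4.03, 5.92, 4.20 and 5.03 FPKM, with 3 of 4 below all controls, and β-cat cOEs were at 5.44, 5.47, 5.81 and 3.93 FPKM, with 1 below. APC/β-cat cKOs were at 6.79, 2.56, 5.33 and 1.23 FPKM, so replicates 2 and 4 stood far below every other library while replicates 1 and 3 did not. The log2 difference from control was -0.28 in APC cKOs (SE 0.36, limma adjusted p = 0.817), and that of β-cat cOEs was -0.18 (limma adjusted p = 0.974). Double mutants were at -0.79 (SE 0.36, limma p = 0.0403, adjusted p = 0.334, exact p = 0.314), and at -0.344 without replicate 4. The β-cat cOE value was -0.053 without their replicate 4.

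The same pair of APC/β-cat cKO libraries had values that fell with transcript length over all genes. Deviations were taken on the log2 scale from each gene's median over the 16 libraries. In the sixth of genes with the longest transcripts (from 5712 nucleotides) the median deviation was -0.14 in replicate 2 and -0.28 in replicate 4. In the shortest sixth (up to 1801 nucleotides) it was 0.10 and 0.18. In the other 14 libraries it lay between -0.06 and 0.10 in the longest sixth. Erbb4 was lower by log2 differences of -1.2 and -2.202 in these libraries than in the other two of its genotype, against medians of -0.27 and -0.47 over 724 genes of like transcript length. Syt2 (6879 nucleotides) was at -0.60 and -0.61, and Sox6 (8668 nucleotides) at -0.50 and -0.59. Ank1, of a like length (8366 nucleotides), was at -0.02 and -0.30, and Pvalb at -0.21 and 0.18. Cox6a2 has a short transcript (680 nucleotides) and was still at -0.38 and -1.67. Without both libraries the log2 difference of Erbb4 between APC/β-cat cKOs and controls was 0.06, that of Sox6 0.03, that of Cox6a2 -0.026 and that of Syt2 -0.155, while that of Pvalb was -0.15. With each library's length slope as a covariate it was -0.07 for Erbb4. The low Erbb4 of the double mutants was thus a feature of 2 of 4 libraries, the same pair that stood apart in transcript length.

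**Figure D2:**
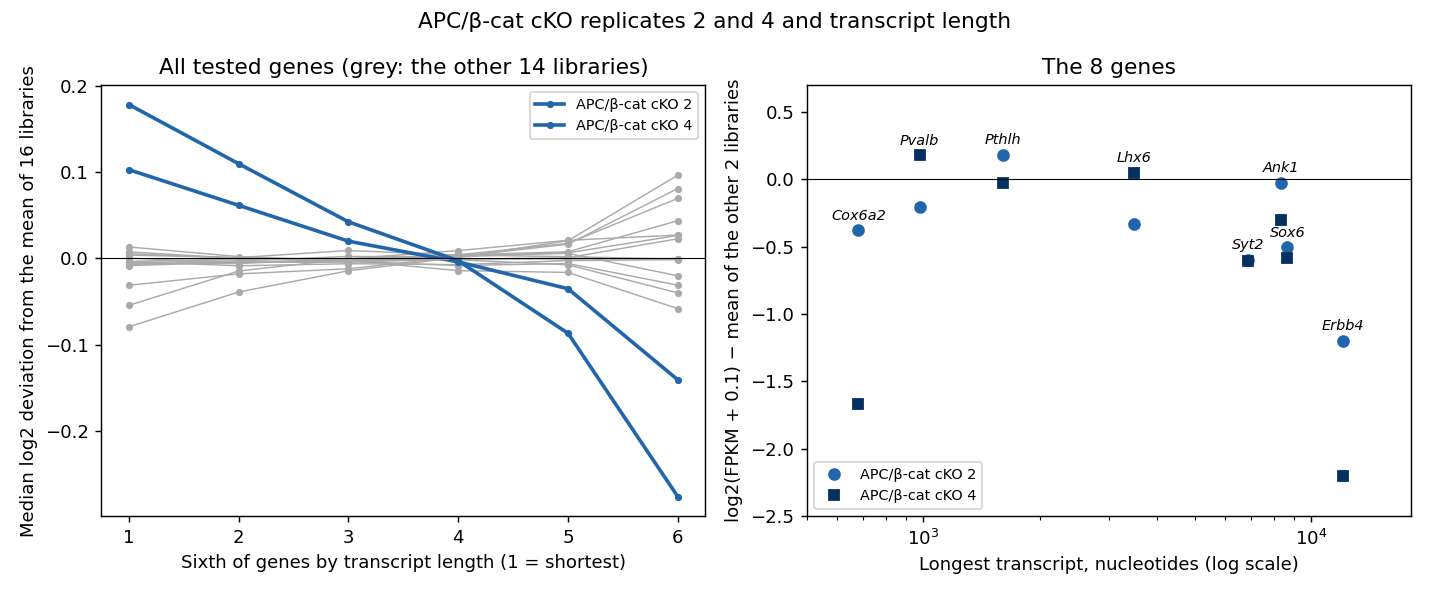
Left: median log2 deviation of all tested genes from their median over the 16 libraries (y axis, whose label says mean). Genes are in sixths by transcript length (x axis, 1 the shortest), with 1 line per library. The blue lines of APC/β-cat cKO replicates 2 and 4 drop to -0.14 and -0.28 in the longest sixth. Right: difference of these 2 libraries from the mean of the other 2 of their genotype (y axis, log2) against the longest transcript of each gene (x axis, nucleotides, log scale); Erbb4 is at -1.2 and -2.202.

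Counted together, 0 of the 8 genes passed an adjusted p of 0.05 (limma) between APC cKOs and controls, where 0.0429% of all genes tested passed. At an unadjusted p of 0.05, 3 of 8 were lower (Pvalb, Syt2 and Ank1), against 5.19% of all genes lower. The same 3 genes had APC cKO libraries that did not overlap the controls, against 2.98% of all genes in that direction. The median log2 difference of the 8 was -0.39, and that of all genes -0.004. Between β-cat cOEs and controls 0 of 8 passed the adjusted threshold (0.0143% of all genes did), and 2 of 8, Pvalb and Syt2, were lower at the unadjusted p (2.77% of all genes). None of the 8 separated from controls there, against 1.62% of all genes, and the median was -0.23. Between APC/β-cat cKOs and controls 0 of 8 passed (0.207% of all genes did), and 1 of 8, Erbb4, was lower at the unadjusted p (7.03% of all genes). The median there was -0.20, and all 8 values were below 0, as were 49.1% of all genes. Without replicates 2 and 4 of the double mutants the median was -0.025, and Erbb4, Lhx6 and Sox6 were above 0. The 3 comparisons share the 4 control libraries, so they are not independent of each other.

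Between APC cKOs and APC/β-cat cKOs 0 of 8 passed the adjusted threshold, where 0.215% of all genes did, and 1 of 8 (Pvalb) was lower at the unadjusted p (6.13% of all genes). Between β-cat cOEs and APC/β-cat cKOs 0 of 8 passed (0.229% of all genes) and 0 of 8 reached the unadjusted p of 0.05 in limma (11.9% of all genes did). Between APC cKOs and β-cat cOEs 0 of 8 passed (0.0429% of all genes) and 0 of 8 reached the unadjusted p (7.57% of all genes did), with Pvalb at -0.28 (95% interval -0.68 to 0.11). Of both lines with raised β-catenin against the other 8 libraries, 0 of 8 passed (0.0572% of all genes), and 3 of 8 were lower at the unadjusted p (5.16% of all genes). These were Pvalb, Syt2 (-0.36, SE 0.15) and Ank1 (-0.16, SE 0.07). Lhx6 was at -0.36 (SE 0.17, limma p = 0.0535, adjusted p = 0.577, exact p = 0.0485).

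**Figure D3:**
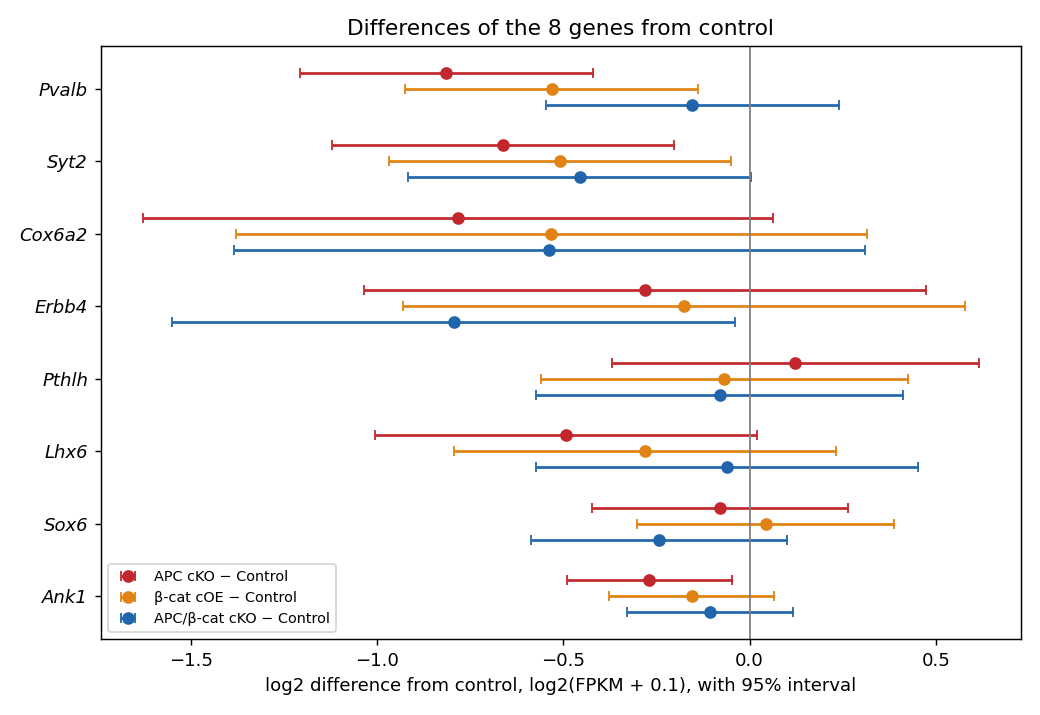
Log2 difference from control (x axis, on the scale of log2(FPKM + 0.1)) of each gene (y axis) in the 3 mutant lines; points are limma estimates and bars their 95% intervals. The APC cKO interval of Pvalb runs from -1.21 to -0.42, while that of the APC/β-cat cKOs runs from -0.55 to 0.24 and crosses 0.

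The order of the genotypes was the same for Pvalb, Syt2, Lhx6 and Ank1, with controls highest, then double mutants, β-cat cOEs and APC cKOs. Each genotype overlapped in range with its neighbour in this order, for these 4 genes and for the other four. Highest and lowest genotype means differed by 1.70 times for Pvalb and Cox6a2, 1.57 times for Syt2, 1.46 times for Erbb4 and 1.18 times for Pthlh.

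Library by library, APC cKO replicate 4 had all 8 genes below their control means, and APC cKO replicates 1 and 3 had 7 of 8. APC cKO replicate 2 and β-cat cOE replicate 3 had 4 of 8. The median of the 8 relative to controls was -0.80 in APC cKO replicate 1, -0.45 and -0.47 in replicates 3 and 4, and -0.03 in replicate 2. In β-cat cOEs it was -0.57, -0.05, -0.02 and -0.51, so the medians of replicates 1 and 4 were low and those of replicates 2 and 3 near 0. The median does not stand for every gene: replicate 2 had the lowest Pvalb and Syt2 of its genotype (-0.80 and -0.79). In APC/β-cat cKOs it was 0.03, -0.38, -0.13 and -0.44, and the low values were those of replicates 2 and 4.

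**Figure D4:**
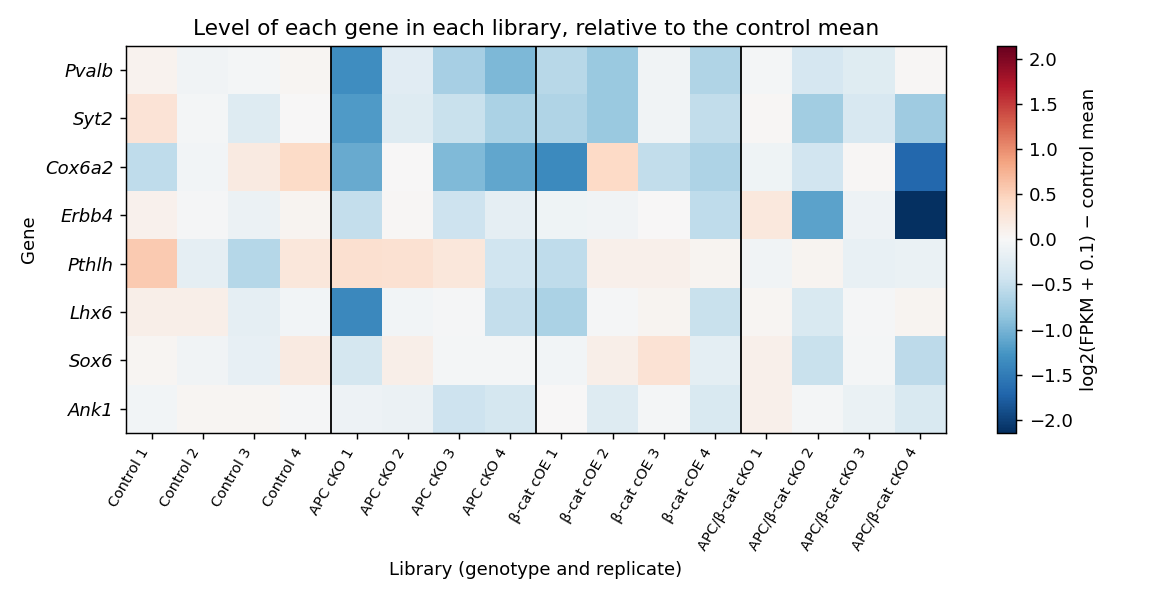
Level of each gene (rows) in each of the 16 libraries (columns, grouped by genotype), as log2(FPKM + 0.1) minus the control mean; blue is lower and red higher. APC cKO replicate 1 is at -1.33 for Pvalb, -1.22 for Syt2 and -1.38 for Lhx6, and APC/β-cat cKO replicate 4 at -2.15 for Erbb4.

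How the genes varied together within genotypes was read from log2 values with the genotype means removed. These correlations describe 16 libraries, whose shared dissection and library quality also enter, and carry no test. Pvalb went with Syt2 (r = 0.75) and Lhx6 (r = 0.73), less with Sox6 (r = 0.52), and hardly with Cox6a2 (r = 0.08), Ank1 (r = 0.11), Erbb4 (r = 0.13) or Pthlh (r = 0.16). Erbb4, Sox6 and Syt2, which have long transcripts, went together at r = 0.61 to 0.81. The short Cox6a2 also went with Erbb4 (r = 0.63) and Sox6 (r = 0.59), at 0.28 and 0.43 without APC/β-cat cKO replicates 2 and 4. The long Ank1 went less with Syt2 (r = 0.19) and Sox6 (r = 0.27). With the length slope of the library, r within genotypes was 0.92 for Sox6, 0.84 for Erbb4 and 0.66 for Syt2. For the others it lay between 0.17 (Pthlh) and 0.48 (Cox6a2). The part of transcript length in the correlations between genes was not tested. Over the 28 pairs the median r was 0.27. Without APC/β-cat cKO replicates 2 and 4 (14 libraries) Pvalb went with Syt2 at r = 0.90, with Sox6 at 0.74, with Lhx6 at 0.71 and with Erbb4 at 0.63, and the median over pairs was 0.34. Ank1 and Lhx6 went in opposite directions in both cases (r = -0.30 and -0.31).

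Among all genes of at least 1 FPKM, the 10 most like Pvalb over the 16 libraries were Plxdc1, Atg4c, Afap1l1, Myl4, Klc2, Nrn1, Adra1b, 9630033F20Rik, Sema7a and Fap, with r from 0.92 down to 0.83. For Syt2 they were Plekha6, Col4a3bp and Cntnap1 (r = 0.94 to 0.93), and for Lhx6 Sst, Lypd6b and Ndfip1 (r = 0.93 to 0.91). Sst encodes somatostatin, the marker of the other interneurons that keep Lhx6. For Sox6 they were Fut9, D430041D05Rik and Rgs7bp (r = 0.96 to 0.95), and for Ank1 Adra1a, Ppip5k1 and Kcnb2 (r = 0.92 to 0.89). For Cox6a2 they were C230091D08Rik, Tsc1 and Adar (r = 0.84 to 0.83), and for Pthlh Cast, Pcdhb14 and Senp6 (r = 0.83 to 0.79). With 14 libraries, Afap1l1 and Plxdc1 led the list of Pvalb, and Syt2 was among its 10 nearest genes (r = 0.90).

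Other genes of fast-spiking cells were read from a list of 15, many of which excitatory neurons also use. It holds the Kv3 channel genes Kcnc1 and Kcnc2, which let these cells fire fast. In APC cKOs 0 of 15 passed the adjusted threshold, 9 of 15 were lower at an unadjusted p of 0.05 (5.19% of all genes were), and the median log2 difference was -0.31. Kcnc1 was at -0.29 (SE 0.08, limma adjusted p = 0.310) and Kcnc2 at -0.42 (SE 0.13, limma adjusted p = 0.326). In β-cat cOEs and in double mutants 3 of 15 each were lower at the unadjusted p (2.77% and 7.03% of all genes were), with medians of -0.20 and -0.14 and 0 of 15 past the adjusted threshold in either. The summed level of the list was 649 to 750 FPKM in controls and 537 to 631 FPKM in APC cKOs, which did not overlap. It was 566 to 647 FPKM in β-cat cOEs, also below the controls, and 586 to 684 FPKM in APC/β-cat cKOs. Cplx1 (mean of 340.2 FPKM over the 16 libraries) made up most of this sum, so the sum does not stand for all 15 genes. Against controls Cplx1 was at -0.28 for APC cKOs (SE 0.06, limma adjusted p = 0.176). Its value for β-cat cOEs was -0.22 (SE 0.06, limma adjusted p = 0.946). How often the sums of other gene lists separate from controls was not tested. Scn4b of this list and Satb1 of the next were printed by the study among genes picked on these libraries.

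Among 11 transcription factors of the ganglionic eminences and of interneurons, 10 could be tested. In APC cKOs 3 of 10 were lower at the unadjusted p, 0 passed the adjusted threshold, and the median log2 difference was -0.01. Satb1, which acts after Lhx6, was at -0.49 (SE 0.17, limma adjusted p = 0.365), while Nkx2-1, the factor above Lhx6 in the embryo, was too low to test. Genes that all inhibitory neurons use were also read in APC cKOs, with Gad1 at 0.03 (SE 0.22), Gad2 at 0.17 (SE 0.13) and Slc32a1 at 0.26 (SE 0.13), and 0 of 4 passed the adjusted threshold. The list's summed level was 364 to 448 FPKM in controls and 348 to 537 FPKM in APC cKOs.

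Genes of the other interneuron classes did not all take the direction of Pvalb, though Sst, Vip and Lamp5 did in APC cKOs. Vip and Lamp5 were also lower in double mutants, at log2 differences from control of -0.415 (SE 0.09, limma adjusted p = 0.113) and -0.27 (SE 0.10, limma adjusted p = 0.281). Sst was at 0.23 there (SE 0.24). The β-cat cOE values were -0.28 for Sst, -0.02 for Vip and -0.28 for Lamp5. Of the somatostatin list, 5 could be tested, and the median log2 difference in APC cKOs was -0.30, with Sst at -0.35 (SE 0.24, limma adjusted p = 0.648) and Grin3a at 0.16 (SE 0.21). There 4 of these 5 genes were below 0, and 2 of 5 were lower at an unadjusted p of 0.05 (5.19% of all genes were). In APC/β-cat cKOs the median was -0.008. Of the VIP list, all 6 were tested, with a median of 0.33 in APC cKOs, where Vip was at -0.27 (SE 0.09, limma adjusted p = 0.365) and Crh at 0.30 (SE 0.16). At the unadjusted p 1 of 6 was lower and 1 of 6 higher (5.19% and 4.82% of all genes were). Of the Lamp5 list (5 tested), Lamp5, listed under the older symbol 6330527O06Rik, was at -0.44 in APC cKOs (SE 0.10, limma adjusted p = 0.204), and Ndnf, listed as A930038C07Rik, at 0.17 (SE 0.27). In APC cKOs 1 of these 5 genes was lower at the unadjusted p. In these 3 lists 0 genes passed the adjusted threshold against controls in any mutant line.

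For the perineuronal net, the matrix that wraps parvalbumin cells, 5 of 6 genes could be tested. Acan was too low to test, and Bcan was at 0.25 in APC cKOs (SE 0.08, limma adjusted p = 0.316). Hapln4, a link protein of the net, was at -0.44 (SE 0.13, limma adjusted p = 0.316), so 1 of 5 genes was higher and 1 lower at the unadjusted p. The summed level of the 6 genes was 139 to 140.1 FPKM in controls and 137 to 142 FPKM in APC cKOs. Of the ligands and sister receptors of Erbb4, 8 of 9 could be tested, and 0 of 8 reached an unadjusted p of 0.05 in any of the 3 mutant lines. Nrg1 was at -0.15 and Nrg2 at 0.26 in APC cKOs (limma adjusted p = 0.892 and 0.577). Pth1r, the receptor for the product of Pthlh, was at 0.12 in APC cKOs (SE 0.13), and Pth was listed at 0 in all libraries of 3 genotypes. Among the closest relatives of the 8 genes, 9 of 10 could be tested, 0 reached the unadjusted p in APC cKOs, and the median was -0.16. Ocm, the parvalbumin relative oncomodulin, was at -0.22 (SE 0.32), and Calb1, another calcium buffer, at -0.17 (SE 0.10). The spectrin partners of erythroid Ank1 were low apart from Sptb, listed as Spnb1, which was at -0.16 in APC cKOs (SE 0.10), and the other 3 of 4 could not be tested.

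Markers of other cells and regions also differed between libraries. None of the cell type and region markers counted here was at 0 in every library of a genotype. The 6 markers of cortical excitatory neurons summed to 1242 to 1322 FPKM in controls and 1077 to 1368 FPKM in APC cKOs. Slc17a7 and Camk2a (means of 475 and 650.7 FPKM over the 16 libraries) made up most of that sum, so it does not stand for all 6. The 7 olfactory bulb markers summed to 9.85 to 126 FPKM in controls and 11.7 to 205 FPKM in APC cKOs, and the 7 striatal markers to 111 to 427 FPKM and 147 to 604 FPKM. The 5 thalamus markers summed to 21.9 to 99.3 FPKM and 37.02 to 181 FPKM. Most of that sum was Calb2 (mean of 58.9 FPKM over the 16 libraries), which is also in the VIP list, so it does not stand for the thalamus. The olfactory bulb and striatal markers thus varied widely between libraries of 1 genotype. The 5 astrocyte markers summed to 337 to 364 FPKM in controls and 361 to 512 FPKM in APC cKOs. The β-cat cOE range was 346 to 420.2 FPKM and the range of double mutants 320 to 435 FPKM. The 6 oligodendrocyte markers summed to 655 to 1012 FPKM in controls and 569 to 685 FPKM in APC cKOs, and the 6 immature neuron markers to 546 to 570.2 FPKM and 550 to 649 FPKM. Tubb3 and Stmn2 (means of 265.6 and 296.9 FPKM over the 16 libraries) made up most of the immature neuron sum. The median log2 difference of that list in APC cKOs was 0.53. In APC cKOs 4 of 6 oligodendrocyte genes were lower at the unadjusted p (5.19% of all genes were). At the same p 2 of 5 astrocyte genes and 4 of 6 immature neuron genes were higher (4.82% of all genes were), and 0 of each passed the adjusted threshold.

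Within genotypes, Pvalb went against the median level of astrocyte markers (r = -0.81), immature neuron markers (r = -0.78), VIP markers (r = -0.74) and thalamus markers (r = -0.72) over the 16 libraries, and with that of cortical excitatory markers (r = 0.70). With olfactory bulb markers r was -0.47 and with striatal markers 0.26. APC cKO replicate 1, the library lowest in Pvalb, was at 2.39 for the olfactory bulb list, 0.37 for the astrocyte list and -0.45 for the excitatory list, as median log2 differences from the control mean. The part of tissue make-up in the levels of the 8 genes was not tested.

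**Figure D5:**
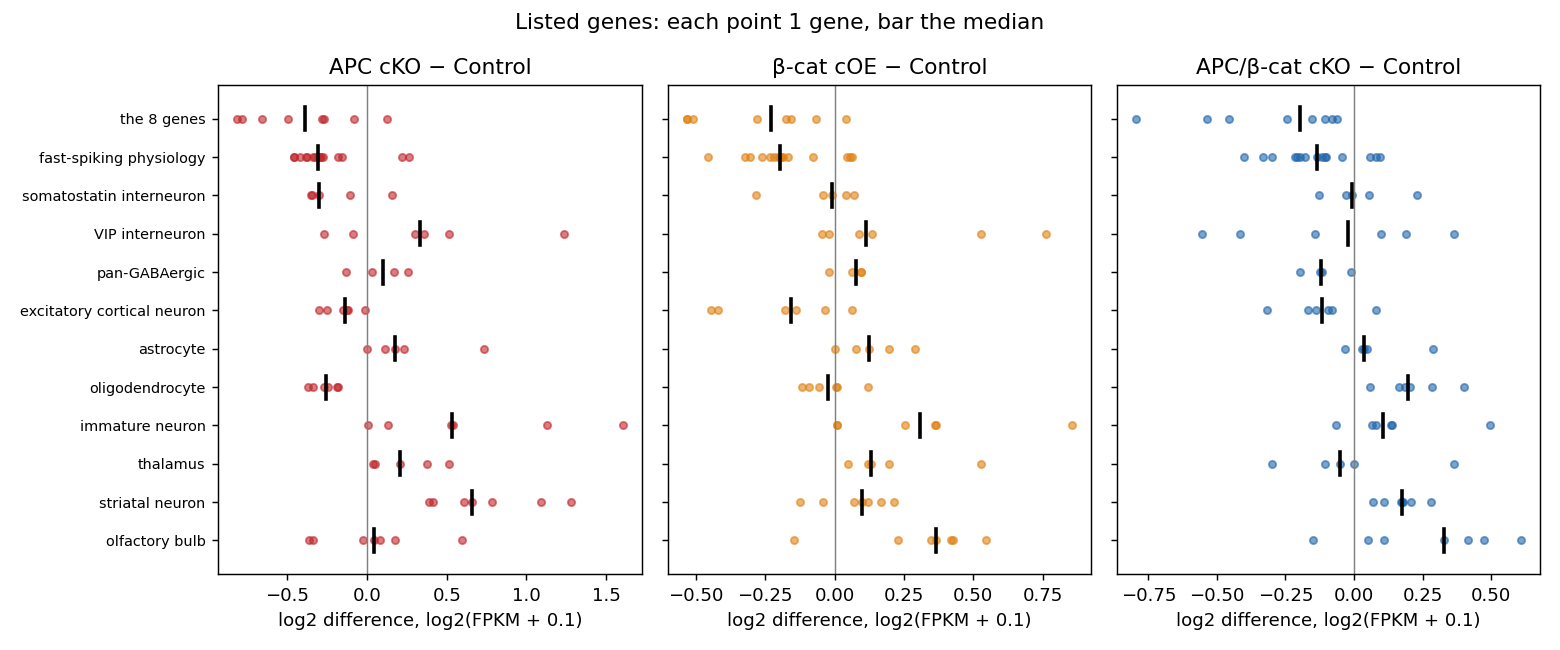
Log2 difference from control (x axis, log2(FPKM + 0.1)) of each tested gene of the named lists (rows) in the 3 mutant lines (panels, each with its own x scale); each point is 1 gene and the black bar is the median of the list. In APC cKOs the medians of the 8 genes and of the fast-spiking list lie at -0.39 and -0.31, and that of the striatal list at 0.66.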

How the data were processed

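RNA of prefrontal cortex was measured in 16 libraries, 4 of each genotype, grouped by the genotype label. The libraries were made with a stranded TruSeq mRNA kit, mapped to mm10 with TopHat2 (2.0.10 in the submitters' notes), and turned by the authors into normalized values with Cufflinks. Cuffdiff (2.1.1 in those notes) was also named. The deposited numbers were taken as log2(FPKM + 1), normalized by the authors. The base was inferred: FPKM times the median transcript length in kilobases then summed to between 592239 and 627186 per library, and natural logs would give 5279898 to 5871089, more than FPKM allows. The table holds no fragment counts, so depth is unknown and no counting interval was given. From 5726 to 6649 genes were at 0 per library. All value columns were used.

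Values were turned back into FPKM. The design had assumed FPKM, and the test was kept. limma 3.58.1 (R 4.3.3; lmFit, contrasts.fit, eBayes with a trend) was run on log2(FPKM + 0.1) over the 13978 genes whose mean FPKM reached 0.5, with 12 residual degrees of freedom, two-sided, with Benjamini-Hochberg adjusted p under 0.05 as a call. This scale understates the change of low genes. Exact permutation tests took the difference in mean of all splits. Scripts used Python 3.11.15 with pandas 2.3.3 and numpy 2.4.6. The limma step was tested on simulated data. Genes and lists were chosen with earlier results of these data known. The genes named are the 8, the 10 most correlated with Pvalb and the 3 most correlated with each other gene (those of Erbb4 are not reported here), and the first 2 of each list, with any called list gene (there was none). Mir486, Sox6os and the overlapping genes are named for their place. Hapln4, Slc32a1, Cplx1, Calb2, Camk2a, Tubb3 and Stmn2 were chosen after their values were seen. Gene lists matched older symbols through RefSeq names, and the red blood cell, skeletal muscle, choroid plexus, microglia and endothelial lists had 0 genes past the adjusted threshold against controls. Alternatives were another pseudocount, filter, scaling or spread model, sex or a replicate number as covariate, only the groups compared, and each library left out. Those on transcript length and on header numbers were chosen after seeing the data. Places came from the GENCODE annotation of mm10.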

Additional observations from a re-analysis of the deposited data

Results flagged for a closer look

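Cox6a2 in APC cKOs was held apart by replicate 2, at 4.57 FPKM against 2.03 to 2.29 FPKM in the other 3 libraries, a gap of 0.895 of the range. Pthlh in APC cKOs had replicate 4 at 1.68 FPKM against 2.73 to 2.92 FPKM, a gap of 0.849 of the range. Pthlh in β-cat cOEs had replicate 1 at 1.53 FPKM against 2.37 to 2.48 FPKM, a gap of 0.888 of the range. Each gap was above the 95% critical value of 0.829 for 4 libraries. Over the 32 sets of 4 libraries examined, chance alone would give about 1.6 such gaps.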

How the results depend on the processing

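Under every alternative run, Pvalb, Syt2, Cox6a2, Lhx6 and Ank1 kept a lower mean than controls in both raised lines. The median of the 8 genes moved by less than its spread between libraries (SD 0.248) in each of 203 checks. That spread is wide: in double mutants the median went from -0.198 to -0.025 without both libraries of steep length slope, and to -0.018 with the slope as a covariate. The count of genes past the adjusted threshold was 0 except without APC cKO replicate 2, so leaving out single libraries gave 0 to 1 for APC cKOs against controls or double mutants and for both raised lines together. At an unadjusted p of 0.05 the counts against controls were 3 (APC cKO), 2 (β-cat cOE) and 1 (double mutants), with 1 for APC cKOs against double mutants and 3 for both raised lines together. With each library left out, Pvalb in APC cKOs ranged from -1.002 to -0.641 against controls and from -0.849 to -0.487 against double mutants, and in both raised lines from -0.690 to -0.509.

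Some signs turned, mostly of small values, but also that of Erbb4 in double mutants (-0.795 as reported) and between APC cKOs and double mutants (0.513 as reported). With the transcript length slope as a covariate, Erbb4 was at 0.073 and Sox6 at 0.08 in APC cKOs and Erbb4 at 0.172 in β-cat cOEs; Lhx6 was at 0.117, Sox6 at 0.087 and Pthlh at 0.013 in double mutants, and Sox6 at -0.006 between APC cKOs and double mutants. Without both double mutant libraries of steep length slope, Erbb4, Lhx6 and Sox6 were at 0.056, 0.010 and 0.030 against controls, and Erbb4 and Sox6 at -0.337 and -0.110 for APC cKOs against them. With sex as a covariate, Pthlh was at 0.061 in β-cat cOEs and 0.049 in double mutants. Leaving out single libraries gave Pthlh -0.081 to 0.308 in APC cKOs, -0.284 to 0.104 in double mutants and -0.271 to 0.117 in β-cat cOEs, Sox6 -0.148 to 0.016 in APC cKOs and -0.044 to 0.126 in β-cat cOEs, and Lhx6 -0.125 to 0.026 in double mutants. The cause was not tested.

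The ratio of Pvalb to Gad1 ranged from -1.136 to -0.454 in APC cKOs, from -0.828 to -0.372 in β-cat cOEs and from -0.140 to 0.153 in double mutants against controls, and from -0.543 to 0.139 between APC cKOs and β-cat cOEs, when single libraries were left out. With Slc32a1 in its place the first was -1.071 (exact permutation p = 0.0286), and with Lhx6 the difference between APC cKOs and double mutants was -0.228. The exact p of Lhx6 in both raised lines was 0.0485, and 0.0517 after median-of-ratios scaling.

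Same-numbered libraries did not deviate together: by title number 4 of 21 pairs and by header number 5 of 24 pairs correlated above 0.1. The labels do not say what else libraries of the same number shared. As a replicate block, the title number gave Pvalb -0.730 in APC cKOs (limma adjusted p = 0.771) and the header number -0.814 (limma adjusted p = 0.307), with 0 of 8 genes called in either. Depth is unknown, so its limit on low genes could not be set.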
